A study of Mus musculus with 16 samples.

Results

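The cytosolic ribosomal protein genes, which encode the proteins of the small (Rps) and large (Rpl, Rplp) subunits of the ribosome, were followed in mouse rod photoreceptors across adult life. Members were all protein-coding genes of the authors' gene table whose symbols follow the ribosomal protein naming pattern, together with Rpsa. This gave 84 of 45594 genes in the table and of its 22175 protein-coding genes, 31 for the small and 53 for the large subunit, on 19 chromosomes. Rods had been sorted by flow cytometry from the retinas of C57BL/6J mice with Nrlp-GFP, a fluorescent reporter driven by the promoter of the rod transcription factor gene Nrl. Libraries came from mice aged 3, 12, 18 and 24 months (3M, 12M, 18M and 24M), with 4 libraries per age that the design text calls biological replicates, and all 4 groups carry the reporter. The protocol also mentions mice without Nrl, but every library used here is labelled with the reporter strain. Nothing in the labels says whether a library is 1 mouse or a pool, and p-values measure the spread between these libraries.

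Ribosomal proteins are assembled with ribosomal RNA in the nucleolus, and their mRNAs are among the most coordinately controlled in the cell. Most of these mRNAs begin with a cytosine followed by a run of pyrimidines, the 5′ terminal oligopyrimidine (TOP) tract, through which the growth kinase complex mTORC1 and the RNA-binding protein Larp1 set their translation. Many ribosomal protein genes also carry small nucleolar RNA (snoRNA) genes in their introns, and many have processed pseudogenes elsewhere in the genome.

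The start of the transcript is shown first because the TOP tract is the sequence feature the family is known for. RefSeq windows on GRCm38.p6 were found by symbol for 63 of the 84 genes, each spanning 250 bases before to 50 bases after an annotated start. An unbroken run of at least 6 C or T within 10 bases before to 20 bases after the start was present for 38 of these 63 genes (60.3%), against 32.1% of all 27025 genes with such windows. A gene counted if any of its annotated starts matched, here and for the motifs below, in members and all genes alike. The windows below belong to members described later. Each is at the annotated start with the longest run, which need not be the gene's main start. Capitals mark the longest pyrimidine run.
Rplp2, chr7:141447641-141447670, plus strand: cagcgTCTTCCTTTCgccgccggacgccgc
Rps6, chr4:86857348-86857377, minus strand: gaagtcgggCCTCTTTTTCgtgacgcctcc
Rpl19, chr11:98026914-98026943, plus strand: TCTCCCCTTCgcagataatgggcggagcct
Rps15a, chr7:118116128-118116157, minus strand: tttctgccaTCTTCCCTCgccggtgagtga
Rpl22l1, chr3:28805498-28805527, plus strand: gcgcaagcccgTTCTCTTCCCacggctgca
Rps27, chr3:90213629-90213658, minus strand: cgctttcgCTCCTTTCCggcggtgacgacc
Rps27l, chr9:66946076-66946105, plus strand: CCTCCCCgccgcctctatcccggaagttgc
Rpl12, chr2:32961702-32961731, plus strand: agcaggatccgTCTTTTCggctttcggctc
Rpl6, chr5:121204491-121204520, plus strand: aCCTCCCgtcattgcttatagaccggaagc
In Rplp2, Rps6, Rps15a and Rps27 the run crosses the annotated start, in Rpl22l1 and Rpl12 it begins just after it, and in Rpl19, Rps27l and Rpl6 it ends before it. Over the full windows of 300 bases, on both strands, the motif CCGGAA, a core that ETS factors bind, was found for 34 of the 63 genes (54.0%) against 16.7% of all genes. AAGATGG, part of the element that YY1 binds, was found for 10 of 63 (15.9%) against 7.3%, and TATAAA for 7 of 63 (11.1%) against 15.7%. These are matches of letters and not binding sites.

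The libraries held 20579144 to 28791777 estimated counts each. Levels are given as CPM, counts scaled to library size with TMM factors, which adjust for differences in composition. The members together made up 0.254% to 0.459% of the CPM of a library. The filter asked for 5 CPM or more in 4 or more libraries. It left 12177 genes for testing, with 79 of the 84 members among them. The 18 rod marker genes summed to 38160 to 51740 CPM per library, all of them above the testing filter. Sums of the markers of Müller glia reached 595.5 CPM in 12M replicate 4, against 209.7 to 413.7 CPM in the other libraries.

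Among the 79 tested members, mean levels ran from 4.90 CPM for Rps27l to 434.2 CPM for Rpl5, with a median of 30.7 CPM. Per kilobase of transcript, weighted by each transcript's counts, the range was 8.88 to 412.3 CPM and the median 37.3 CPM. High levels per kilobase were those of Rpl5 (412.3 CPM), which binds 5S ribosomal RNA, Rpl26 (172.3), Rpl6 (128.8) and Rpl13a (111.8). The lowest tested were Rps20 (8.88 CPM), Rps27l (9.12), Rpl27 (9.69), Rps16 (10.1) and Rpl22l1 (10.3). With the longest transcript as the length, Rpl5 stood at 212.3, Rpl6 at 98.3 and Rps20 at 6.74 CPM per kilobase. The estimated RNA levels per kilobase thus differed widely among genes of the family. They cover coding and noncoding transcripts alike, and for Rpl5 94.2% of counts were noncoding.

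The 5 members that were not tested were Rpl3l, Rpl6l, Rpl10l, Rpl39l and Rps12. Rpl3l, the paralog of Rpl3 known from skeletal and heart muscle, averaged 0.403 CPM, and Rpl10l, known from the testis, averaged 0.0171 CPM. Rpl6l averaged 0.0513 CPM and Rpl39l, also known from the testis, 0.0021 CPM. Rps12, a standard small-subunit protein (chr10:23785211-23787195, minus strand, GRCm38), is listed at 0 in all 16 libraries.

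The listing of Rps12 at 0 stood beside a pseudogene that holds most of its sequence. Rps12-ps3 on chromosome 19 averaged 13.5 CPM, and 90.4% of the 31-base words of the Rps12 transcript also occur in it. Of the 411 coding bases of Rps12, 397 lie in 2 runs found unbroken in Rps12-ps3, and the longer run is 265 bases. The start of that run, coding bases 147 to 206, is printed here because reads from it fit both genes.
Rps12 and Rps12-ps3: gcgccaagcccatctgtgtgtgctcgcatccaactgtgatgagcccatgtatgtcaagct
Such sharing was common in the family. In 81 of the 84 members some 31-base words occurred in another gene, in 54 at least 50% did, and the median was 56.1%. For Rps27, 98.7% of words occur in Rps27rt (3.15 CPM). For Rps6, 84.9% occur in Rps6-ps4 (33.4 CPM), and for Rplp2 76.5% occur in Wdr89 (38.3 CPM). Levels of these genes are therefore uncertain, because the authors' estimates could divide reads between such copies. The 269 processed pseudogenes named after members summed to 246.1 to 321.8 CPM per library.

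The genes moved together from library to library. Summed over all 84 genes, the 3M libraries held 3852, 3854, 3601 and 3845 CPM. At 12M the sums were 2892, 2934, 2739 and 4588 CPM, at 18M 3585, 3936, 2537 and 3132 CPM, and at 24M 2727, 3568, 3925 and 2809 CPM. The 3M libraries thus lay close together (3788 ± 125 CPM, SD, n = 4), while each later age held both libraries as high as those at 3M and libraries well below them. The means at the later ages were 3288 ± 871, 3298 ± 605 and 3257 ± 585 CPM at 12M, 18M and 24M (SD, n = 4 each). The highest sum of the series, 12M replicate 4, and the lowest, 18M replicate 3, are among the 3 libraries that the authors' normalized table leaves out, the other being 24M replicate 3. No label or file gives a reason. The 2 subunits moved together, with the small subunit holding 27.4% to 30.0% of the family's CPM in every library.

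**Figure D1:**
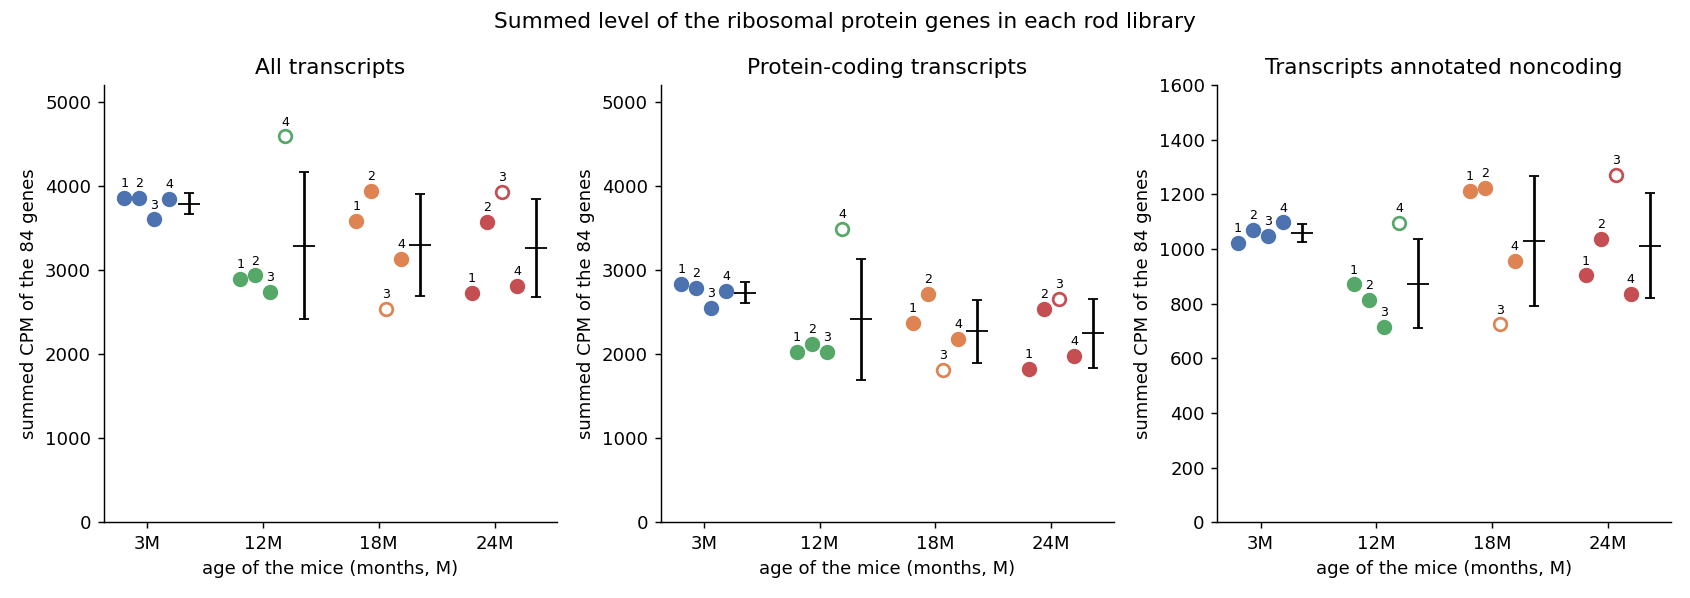
Summed CPM of the 84 ribosomal protein genes in each of the 16 rod libraries by age, over all transcripts (left), protein-coding transcripts (middle) and transcripts annotated as noncoding (right). Points are libraries with their replicate number, open points are the 3 libraries left out of the authors' normalized table, and bars give mean ± SD of 4 libraries. The 3M libraries lie between 3601 and 3854 CPM, and the later ages spread from 2537 to 4588 CPM.

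Nearly all genes took part in these swings. In 12M replicate 4, 77 of the 79 tested members stood above their own mean over the 16 libraries, with a median deviation of 0.50 on the log2 scale. In 18M replicate 3, 77 stood below, with a median deviation of -0.39. In 24M replicate 1, 77 stood below (median -0.32), and in 24M replicate 3, 72 stood above (median 0.21). The 4 libraries at 3M each had 73 to 77 members above their mean. Rps13, a small-subunit protein, had 24.1, 23.1, 19.6 and 20.4 CPM at 3M, 22.3, 22.8, 21.0 and 19.1 at 12M, 20.1, 20.2, 18.8 and 19.0 at 18M, and 16.3, 19.9, 20.8 and 18.5 at 24M. In 12M replicate 4 it was the lowest of the 12M libraries, where the family's sum was the highest.

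**Figure D2:**
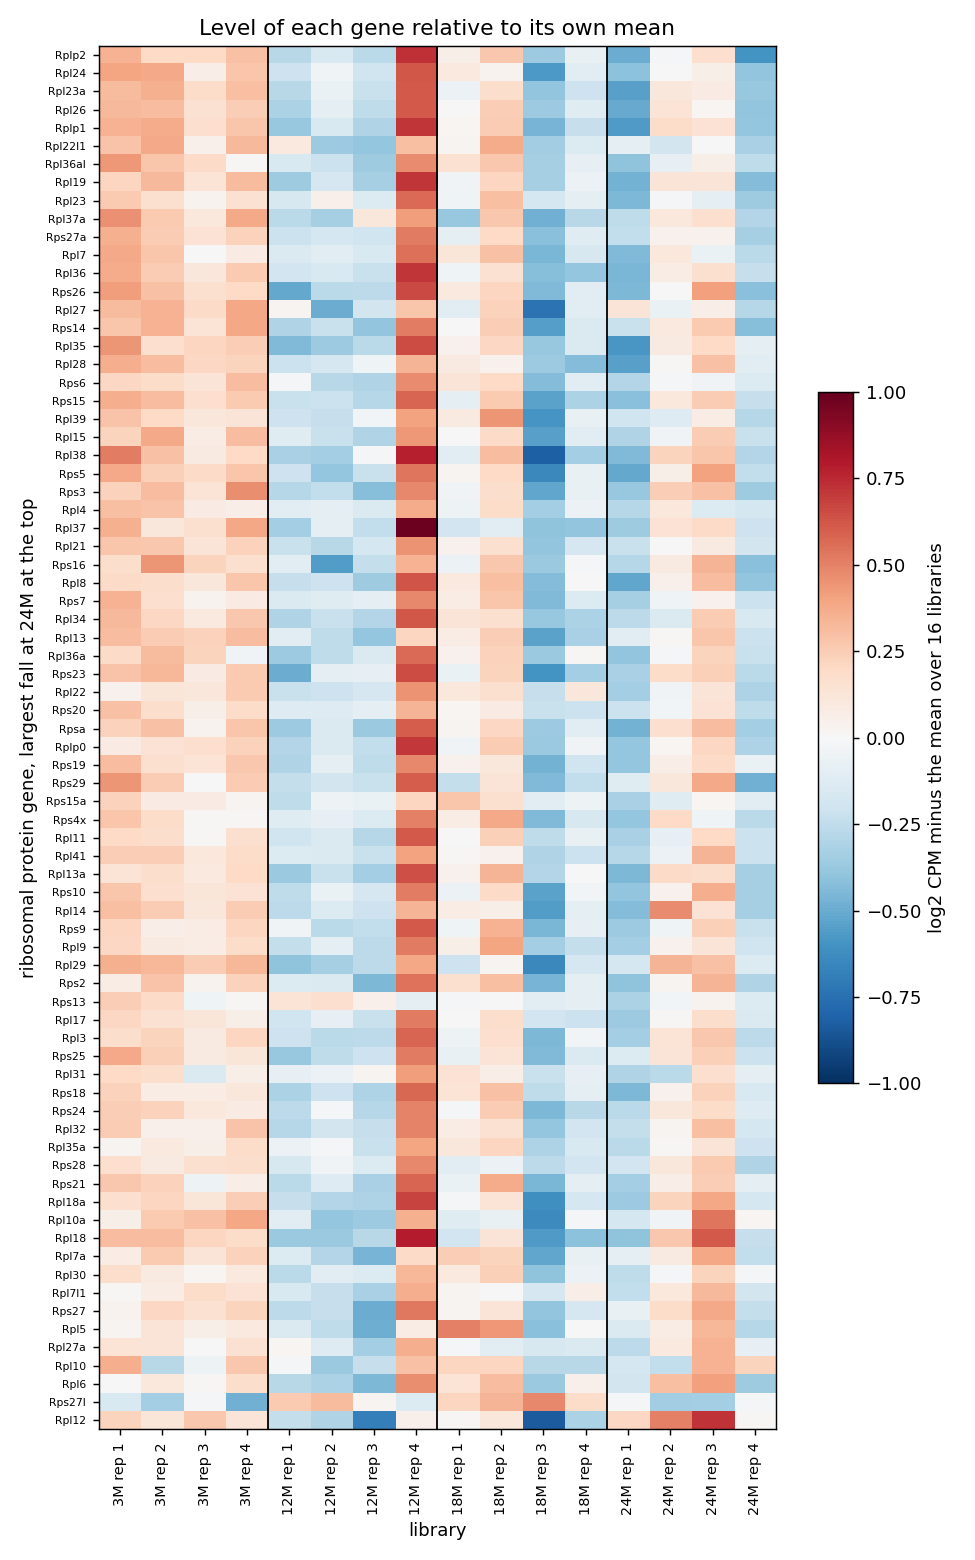
Log2 CPM of 76 of the 79 tested ribosomal protein genes minus each gene's own mean over the 16 libraries, with genes ordered from the lowest to the highest fold change at 24M. Red marks libraries above and blue libraries below the gene's mean, and black lines separate the ages. 12M replicate 4 is red in 74 of the 76 genes drawn and 18M replicate 3 is blue in 75, with Rps27l, next to last, blue in the first and red in the second.

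At 24M compared with 3M, 76 of the 79 members had a log2 fold change below 0, against 47.3% of all genes tested. Their median was -0.26, against 0.01 over all genes, and it was -0.25 for the small and -0.27 for the large subunit. No single member passed the test (edgeR quasi-likelihood, 16 libraries): 0 were higher and 0 lower at an adjusted p under 0.05, while 4.25% of all genes were called, 2.65% higher and 1.6% lower. At an unadjusted p under 0.05 there were 12 members, against 14% of all genes. DESeq2 also called 0 members, against 6.34% of all genes, and the smallest edgeR adjusted p was 0.255 (Rpl22l1). The lowest fold changes were those of Rplp2 (-0.46 ± 0.22, SE, adjusted p = 0.365 by edgeR), Rpl24 (-0.45), Rpl23a (-0.45), Rpl26 (-0.42), Rplp1 (-0.41) and Rpl22l1 (-0.41). Above 0 stood only Rpl12 (0.20 ± 0.19), Rps27l (0.07 ± 0.15) and Rpl6 (0.01 ± 0.20), none past the test.

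Rplp2 and Rplp1 form, with Rplp0, the stalk through which the large subunit engages elongation factors. Rplp2 had 25.9, 36.1, 41.2 and 24.2 CPM in the 24M libraries, against 46.6, 42.0, 41.9 and 44.9 CPM in the 3M libraries, so the ages did not overlap. The 12M libraries 1 to 3 were as low (30.2, 33.0 and 30.3 CPM), and the fourth was the highest of all at 60.9 CPM. Rplp1 had 32.4, 54.7, 53.2 and 36.7 CPM at 24M, against 61.1, 62.1, 54.1 and 58.2 CPM at 3M, so 24M replicate 2 lay within the 3M range. Rplp0 averaged 50.6 ± 9.8 CPM at 24M and 60.4 ± 2.6 CPM at 3M (SD, n = 4 each).

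Libraries of the 2 ages did not overlap for 14 members, all lower at 24M, where 5.32% of all genes tested were lower without overlap and 5.28% higher. Among them were Rpl19, Rpl21, Rpl22l1, Rpl23, Rpl23a, Rpl24, Rpl26, Rpl27, Rpl39, Rplp2, Rps6, Rps15a and Rps27a. Rps6, the small-subunit protein phosphorylated downstream of mTORC1, had 42.2, 51.2, 50.5 and 47.0 CPM at 24M, against 59.7, 58.9, 56.7 and 64.0 CPM at 3M. Rpl24, which sits at the interface of the subunits, had 13.5, 18.0, 18.6 and 13.6 CPM at 24M, against 23.5, 23.2, 18.8 and 21.6 CPM at 3M. For Rpl24 the highest 24M library and the lowest 3M library nearly touched. The same held for Rpl19 (63.8 CPM at 24M and 64.0 CPM at 3M). The gap was also small for Rpl22l1 (17.2 and 17.8 CPM) and for Rplp2, whose values are given above. Rps27a, made as a fusion with ubiquitin, averaged 46.2 ± 6.2 CPM at 24M and 59.3 ± 3.7 CPM at 3M.

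Rpl5 and Rpl11, which with 5S ribosomal RNA form the particle that binds the p53 regulator Mdm2, were not called. Rpl11 averaged 27.5 ± 4.5 CPM at 24M and 32.3 ± 1.8 CPM at 3M, and Rpl5 430.6 ± 81.5 CPM at 24M and 450.6 ± 13.0 CPM at 3M. Rpsa, also known as the laminin receptor, averaged 99.1 ± 25.7 CPM at 24M and 118.6 ± 9.3 CPM at 3M (SD, n = 4 each).

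How many members were called depended on the choice of libraries and on the model. In the 13 libraries that the authors normalized, without 12M replicate 4, 18M replicate 3 and 24M replicate 3, the same test called 51 of 79 members lower at 24M than at 3M and 0 higher, with 11.5% of all genes called lower and 23.7% called either way. Of tested protein-coding genes under 1 kb, a class that holds 51 members, 32.4% were called lower there. The members' median was then -0.36, and 20 of the 30 small-subunit and 31 of the 49 large-subunit genes were called. Rplp2 fell by 0.62 on the log2 scale (adjusted p = 0.00274 by edgeR), Rpl24 fell by 0.54, Rpl23a fell by 0.54 and Rplp1 fell by 0.52. Among the 28 not called were Rpl5 (-0.19), Rpl6 (-0.13), Rpl12 (0.07) and Rps27l (0.12). With all 16 libraries but down-weighted by quality (limma voom), 59 members were called lower at 24M, against 13.6% of all genes. Leaving out any single library of the 16 called no member in this comparison, with medians from -0.36 to -0.18. Of all 12177 genes, 375 (without 3M replicate 2) to 725 (without 12M replicate 4) were then called.

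**Figure D3:**
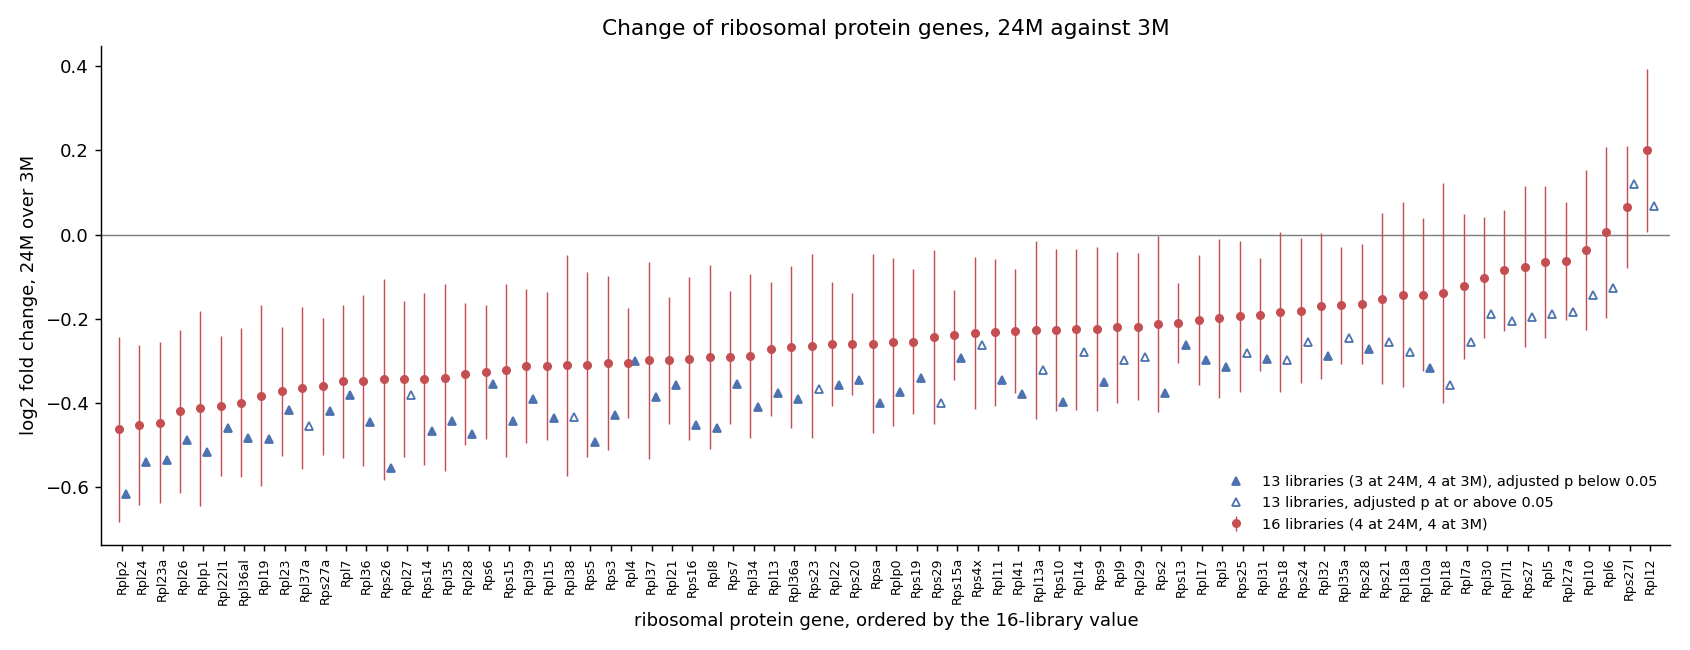
Log2 fold change at 24M over 3M of 76 of the 79 tested ribosomal protein genes. Circles give the 16-library fit with its standard error, and triangles the 13-library fit, filled where the adjusted p was below 0.05. In 73 of the 76 genes drawn the circle lies below 0, and 49 triangles are filled.

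At 18M, 77 of 79 members were below 0 (median -0.26, against 0.01 over all genes), and 0 were called in either direction, with 1.68% of all genes called higher, 0.961% lower and 2.64% either way. At an unadjusted p under 0.05 there were 8 members, against 12.4% of all genes, and DESeq2 called 1, Rps27l, against 4.34%. The lowest were Rpl29 (-0.55 ± 0.18, SE, adjusted p = 0.147 by edgeR), Rpl37 (-0.53) and Rpl37a (-0.50), all large-subunit proteins. Rpl29 had 40.9, 48.2, 30.1 and 42.0 CPM at 18M, against 60.3, 59.5, 56.2 and 59.5 CPM at 3M. The ages did not overlap for Rpl29, which was 1 of 12 members lower without overlap (6.46% of all genes), and at 12M 2 were, Rpl12 and Rpl13 (2.67%), with 0 higher (2.42%). In the 13 libraries 46 members at 24M, 13 at 18M and 70 at 12M were lower without overlap (14.3%, 7.63% and 20.2% of all genes). In the 13 libraries Rpl29, Rpl37 and Rpl10a were called lower, with 2.22% of all genes lower and 5.95% called.

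At 12M, 76 of 79 were below 0 (median -0.18, against 0.00 over all genes) and 0 were called, with 0.977% of all genes higher, 0.411% lower and 1.39% either way. Here 4 members had an unadjusted p under 0.05, against 9.15% of all genes, and DESeq2 called 0, against 2.57%. The lowest were Rpl12 (-0.46), Rpl29 (-0.44) and Rpl13 (-0.39). Values above 0 included Rps27l (0.37) and Rpl31 (0.01). Without 12M replicate 4 alone, Rpl21, Rpl29 and Rpl35 were called lower, against 2.14% of all genes. In the 13 libraries 67 members were lower and 1, Rps27l, higher, with 18.8% of all genes lower, 19.4% higher and 38.2% called, and a median of -0.43. The F-test over the 4 ages called 0 members in 16 libraries, against 2.82% of all genes. At an unadjusted p under 0.05 it gave 3 members, against 10.8%, and DESeq2 called 2, Rps27l and Rpl12, against 5.46%. The edgeR F-test called 60 in the 13 libraries, against 29.1%. A linear term in age called 0 members in 16 libraries, against 4.8% of all genes. It gave 18 at an unadjusted p under 0.05, against 14.6%, and DESeq2 called 0, against 6.5%. By edgeR it called 5 in the 13 libraries (Rps20, Rpl23a, Rpl24, Rpl28 and Rpl41), against 8.67%. The 3 comparisons share the 3M libraries. In the authors' deposited table, 79 members are listed, and 53 have an adjusted p under 0.05 for any difference among the ages, with 26.7% of its genes.

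The family's genes are short, and short transcripts as a class moved the same way. Tested members had a median length of 830 bases (373 for Rpl38 to 3509 for Rps15a), against 2859 for tested protein-coding genes. For the 513 tested protein-coding genes under 1 kb, of which 51 are members, the median log2 fold change at 24M was -0.13, and for those 51 members it was -0.28. Among 2251 genes of 1 to 2 kb the median was -0.05, and for the 24 members among them -0.23. In the 13 libraries 32.4% of the genes under 1 kb were called lower at 24M, and 34 of the 51 members. At 12M it was 47.2% of them and 44 members. For genes of 1 to 2 kb it was 20.35% and 14 of the 24 members at 24M, and 33.45% and 20 members at 12M. Genes over 4 kb had a median of 0.05. Each library's slope of log2 level on transcript length, computed without the members, was lowest in 24M replicate 3 (-0.081) and 12M replicate 4 (-0.044), which held high sums. It was highest in 18M replicate 3 (0.082) and 12M replicate 3 (0.074), which held low sums. With this slope as a covariate, the members' median at 24M was -0.14 and Rpl12 alone was called, higher by 0.36 (adjusted p = 0.00671 by edgeR), where 6.07% of all genes were higher. The median at 18M was -0.14, and at 12M it was 0.03. The GC slope as a covariate instead gave 16 members lower at 24M, against 10.3% of all genes. Over every test, the length slope gave 1 member at 24M (11.3% of all genes), 2 at 18M (5.36%), 0 at 12M (2.04%), 1 for any difference (7.14%) and 2 for the linear term (9.41%). In the 13 libraries it gave 1 (3.1%), 5 (6.93%), 0 (0.46%), 2 (4.85%) and 1 (7.34%). The GC slope gave 16 (20.4%), 3 (9.12%), 0 (4.96%), 4 (14.4%) and 13 (18.4%). Quality weights gave 59 (27.2%), 4 (9.12%), 64 (47.9%), 66 (44.6%) and 4 (8.6%). All 13 members called for the linear term under the GC slope were lower, against 8.93% of all genes lower. Under quality weights the members' share of calls was above that of all genes at 24M, at 12M and for any difference. The length and GC slopes are measures of the libraries, and what sets them was not tested.

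Markers of rods and of other retinal cell types were read beside these values. The 18 rod markers summed to 41880 ± 3561 CPM at 24M (38160 to 45620) and 49560 ± 1631 CPM at 3M (47940 to 51740), with 2 genes called lower, Pdc and Gngt1, both of phototransduction. At 24M in the 16 libraries 17 of these 18 had a log2 fold change below 0. Their median was -0.24, beside -0.26 for the ribosomal protein genes. In the 13 libraries 14 of the 18 rod markers were called lower at 24M, with a median log2 fold change of -0.31, and 11 at 12M, while the ribosomal protein genes were called lower there too. Of 16 Müller glia markers, 13 were tested, and 1, Car2, was higher. Among those 13, 2 had a log2 fold change below 0 at 24M, and the median was 0.44. The sum of the Müller glia markers was 363.3 ± 55.9 CPM at 24M (288.5 to 413.7) and 268.1 ± 65.5 CPM at 3M (209.7 to 360.2). Of 12 cone markers 9 were tested and 1, Gnb3, was higher, and their sum was 200.3 ± 14.5 CPM at 24M (182.0 to 215.4) and 179.3 ± 33.8 CPM at 3M (154.4 to 229.2). Among the 9 tested cone markers, 1 was below 0 at 24M, and the median was 0.09. Of the tested markers of bipolar cells (7), amacrine and ganglion cells (8), microglia (1), astrocytes (2), endothelial cells and pericytes (4), pigment epithelium (2) and red blood cells (1), 0 were called at 24M. Called higher at 24M in the 13 libraries were 2 Müller glia markers, 1 cone marker, the microglia marker and the red blood cell marker, and 1 amacrine and ganglion cell marker was called lower. None of these markers was at 0 in all libraries, and their part in the ribosomal protein values was not tested. In such bulk samples fewer cells of a type and less RNA per cell cannot be told apart.

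Rps27l had its highest levels at 18M, although edgeR did not call it at that age in the 16 libraries. It is a paralog of Rps27 and a known target of p53. It had 4.32, 3.80, 4.78 and 3.45 CPM in the 3M libraries, 5.77, 6.00, 4.91 and 4.38 at 12M, 5.60, 6.09, 6.71 and 5.46 at 18M, and 4.76, 3.79, 3.80 and 4.73 at 24M. The 18M libraries all lay above the 3M libraries, the only such member in that direction, where 7.22% of all genes did the same. Rps27l passed the filter of 5 CPM in 4 libraries only through 12M and 18M libraries. All 18M libraries and no 3M or 24M library reached 5 CPM. The non-overlap and p-values at 18M thus rest on values that also let the gene into the test. The level at 24M lay within the 3M range. The log2 fold change at 18M was 0.54 ± 0.14 (SE, adjusted p = 0.0590 by edgeR), and DESeq2 gave an adjusted p of 0.0141. Over all alternatives the adjusted p ran from 0.0141 to 0.202, the highest without 3M replicate 4. In the library where the family was lowest, 18M replicate 3, Rps27l was at its highest.

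Most Rps27l counts came from a transcript that does not encode the protein. Noncoding transcripts held 68.1% of them, and 64.8% were in the processed transcript ENSMUST00000143044. Noncoding Rps27l stood at 4.03, 4.33, 5.39 and 4.05 CPM at 18M, against 1.80, 2.33, 2.64 and 1.34 CPM at 3M, without overlap. Coding Rps27l stood at 1.57, 1.76, 1.32 and 1.41 CPM at 18M, against 2.52, 1.46, 2.14 and 2.11 CPM at 3M. So the higher total lay in the noncoding transcript. The log2 ratio of noncoding to coding transcripts was 1.32 ± 0.36 higher at 18M (SE, adjusted p = 0.188 by limma over 5791 genes), and 0.97 ± 0.36 higher at 24M (adjusted p = 0.370).

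Of 8 pairs of a paralog and its partner, 4 had both genes at a testable level. The log2 ratio of Rps27l to Rps27 averaged -1.90 ± 0.45 in the 24M libraries, against -2.06 ± 0.27 in the 3M libraries (SD, n = 4 each), a difference of 0.16 (exact permutation test, two-sided, p = 0.514, adjusted over 4 pairs 0.514). At 18M the ratio was 0.81 above that at 3M, with p = 0.0286 in the exact permutation test, the smallest that 4 against 4 libraries can give, and an adjusted p of 0.114. This ratio uses total counts, and the higher Rps27l total at 18M lay in its noncoding transcript. Most words of Rps27 also occur in Rps27rt. Rpl22l1, the paralog of Rpl22, had a log2 ratio to it of -1.92 ± 0.18 at 24M and -1.79 ± 0.15 at 3M, a difference of -0.13 (exact permutation p = 0.286, adjusted 0.381). Rpl36al to Rpl36a differed by -0.12 and Rpl7l1 to Rpl7 by 0.25 (exact permutation p = 0.171 each, adjusted 0.343). So no pair's ratio at 24M passed the test, and Rpl22l1, with 16.1, 15.2, 17.2 and 13.7 CPM at 24M against 20.9, 22.3, 17.8 and 21.5 CPM at 3M, is lower without overlap. Of Rpl22l1 counts, 90.7% came from noncoding transcripts.

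**Figure D4:**
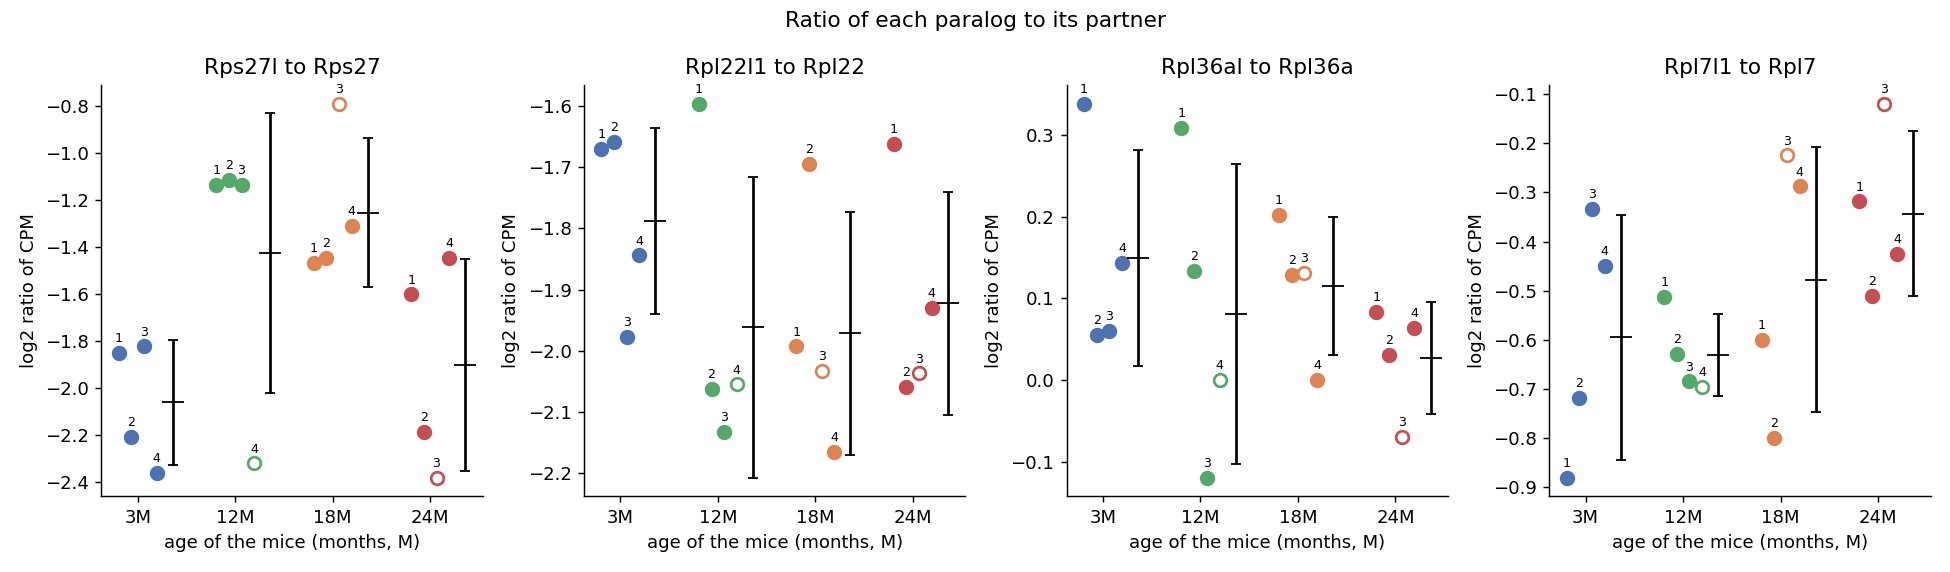
Log2 ratio of CPM of each paralog to its partner in each library by age, for Rps27l to Rps27, Rpl22l1 to Rpl22, Rpl36al to Rpl36a and Rpl7l1 to Rpl7. Points are libraries with their replicate number, open points are the 3 libraries left out of the authors' normalized table, and bars give mean ± SD of 4 libraries. For Rps27l to Rps27 all 18M libraries lie above all 3M libraries, and in the other pairs each later age overlaps 3M. Ratios use coding and noncoding transcripts together.

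The kit used total RNA, and much of the family's signal was assigned to transcripts annotated as keeping introns. Whether such counts come from those transcripts, from unspliced precursors or from the snoRNAs was not tested. Protein-coding transcripts held 70.8% of the members' counts and retained-intron transcripts 25.2%. In 17 members a transcript carried a snoRNA gene inside an exon, as when an intron is kept. Rpl5 held the largest part of the retained-intron counts. Of its counts 94.2% were noncoding, and 92.9% were in a single retained-intron transcript of 1024 bases that spans Snord21. Rpl12 had 99.1% noncoding counts (Snora65), Rps3 64.9% (Snord15b), Rpl13 59.2% (Snord68) and Rpl6 54.6% (Gm26205). Coding Rpl5 transcripts averaged 25.2 CPM against 409.1 CPM for the noncoding ones. The high rank of Rpl5 by level thus rests on a transcript that the annotation does not class as coding. Summed noncoding transcripts of the family stood at 1011 ± 193 CPM at 24M and 1059 ± 33 CPM at 3M, and coding transcripts at 2246 ± 408 CPM at 24M and 2729 ± 122 CPM at 3M (SD, n = 4 each).

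At 24M in the 16 libraries, members with mostly noncoding counts had the median nearest to 0, and at 12M theirs was the lowest. The 13 tested members with at least 50% noncoding counts had a median log2 fold change at 24M of -0.12, the 29 with 10% to 50% a median of -0.26, and the 37 with less than 10% a median of -0.29. In the same order the medians were -0.26, -0.22 and -0.30 at 18M and -0.31, -0.16 and -0.19 at 12M. Rpl12, a protein of the stalk base, had 83.5, 102.1, 119.3 and 72.8 CPM of noncoding transcripts at 24M, against 83.7, 78.0, 87.1 and 78.8 CPM at 3M. Its coding transcripts were under 1.2 CPM in every library. Rpl6 had 42.0, 58.8, 67.9 and 43.8 CPM of coding transcripts at 24M, against 65.2, 67.8, 62.1 and 65.4 CPM at 3M. Its noncoding transcripts stood at 65.7, 91.6, 94.9 and 52.1 CPM at 24M, against 56.6, 63.7, 61.1 and 73.1 CPM at 3M. The log2 ratio of noncoding to coding Rpl6 was 0.54 ± 0.13 higher at 24M (SE, adjusted p = 0.111 by limma), the smallest adjusted p among the 49 members with both classes. No member's ratio was called at any age (0 of 49), with 0.363% of 5791 genes called at 24M, 0.259% at 18M and 0.0691% at 12M. At 24M 5 members had an unadjusted p under 0.05, against 10.2% of these genes. The members' median ratio at 24M was 0.15 higher, against 0.06 over all genes. With coding transcripts alone, 76 members were tested, 0 were called and their median at 24M was -0.27.

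**Figure D5:**
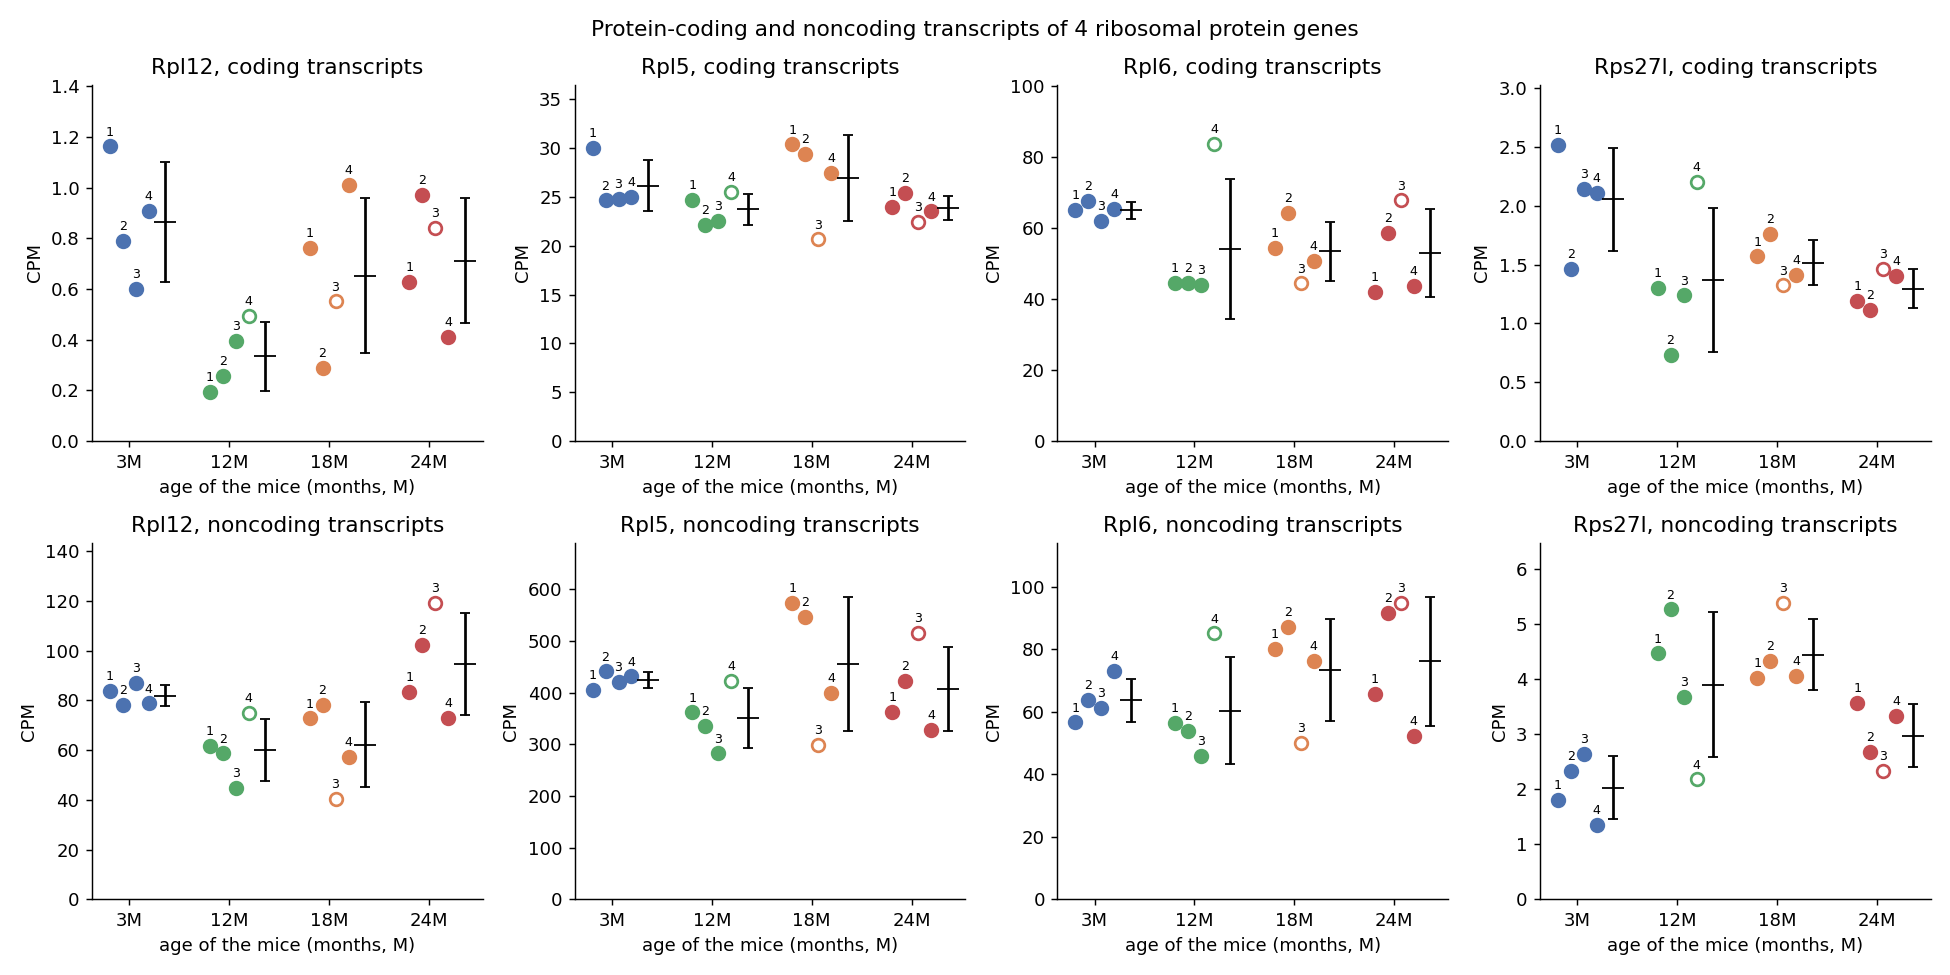
CPM of protein-coding (top) and noncoding (bottom) transcripts of Rpl12, Rpl5, Rpl6 and Rps27l in each library by age. Points are libraries with their replicate number, open points are the 3 libraries left out of the authors' normalized table, and bars give mean ± SD of 4 libraries. Noncoding Rps27l at 18M (4.03 to 5.39 CPM) lies above 3M (1.34 to 2.64 CPM), while its coding transcripts at 18M (1.32 to 1.76 CPM) overlap 3M (1.46 to 2.52 CPM).

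Other genes of the translation machinery were read from lists. Of the 4 cytosolic ribosomal proteins outside the naming pattern, such as Rps3a1, Gnb2l1 and Fau, 0 were called at 24M and all 4 were below 0, with a median of -0.25. Fau, made as a fusion with a ubiquitin-like protein, had 5.75, 5.58, 11.4 and 4.77 CPM at 24M, against 11.5, 9.52, 9.64 and 11.3 CPM at 3M, and 24M replicate 3 stood apart. Of 25 other TOP mRNAs tested, 0 were called and 22 were below 0 (median -0.18), and of 37 translation initiation factors 0 were called and 32 were below 0 (median -0.10). Of 14 elongation and termination factors 7 were below 0 (median 0.00), with 0 called. Of 77 ribosome biogenesis factors 2 were called, both lower, and the median was -0.02. Ltv1, which helps mature the small subunit, averaged 19.9 ± 2.3 CPM at 24M and 26.4 ± 3.0 CPM at 3M (log2 fold change -0.41 ± 0.10, SE, adjusted p = 0.0195 by edgeR). Rrp1b averaged 192.1 ± 17.5 CPM at 24M and 238.0 ± 20.4 CPM at 3M (-0.31 ± 0.08, adjusted p = 0.0495). Both calls were lost on leaving out single libraries, where adjusted p reached 0.0846 for Ltv1 (without 3M replicate 2) and 0.164 for Rrp1b (without 24M replicate 1). Of 15 RNA polymerase I genes 0 were called (median -0.07), and of 19 regulators of ribosomal protein mRNAs and mTORC1 0 were called (median 0.03). Of 19 p53 targets 1 was called: Gadd45a, a stress-response gene, averaged 27.2 ± 2.2 CPM at 24M and 37.4 ± 1.3 CPM at 3M (-0.46 ± 0.08, adjusted p = 0.00158). At 18M and 12M 0 genes of these 8 lists were called. All gene lists share the background of 2.65% of genes higher and 1.6% lower at 24M. Over all genes, 12.2% were called higher and 11.5% lower at 24M in the 13 libraries. There 3 of the 4 ribosomal proteins outside the naming pattern were lower, as were 8 of 25 other TOP mRNAs and 8 of 37 initiation factors, with 0 higher in these 3 lists. Of elongation and termination factors 2 were higher and 2 lower, of biogenesis factors 4 and 7, of RNA polymerase I genes 1 and 0, of regulators 1 and 1, and of p53 targets 1 and 4.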

How the data were processed

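Rod RNA libraries of 4 ages were analysed, 4 per age. The members and the gene lists were chosen with earlier results of these data known. The authors deposited estimated counts per transcript (expected counts, 85.1% of positive values not whole), a gene CPM signal scaled by an effective library size, a normalized CPM signal of 11826 genes in 13 libraries, and a table of log2 differences with an F score, p-value and adjusted p-value, per the file headers. Per the submitters' processing notes, GRCm38.p4 was the build, and kallisto 0.42.5 with limma 3.32.2 and edgeR 3.13.9 were among the tools. No source states a strand setting. Libraries were made from 4 ng of total RNA with 13 PCR cycles and read as pairs of 125 bases, per the labels' protocols, so reads are not independent molecules.

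Here estimated counts of 111896 of 113468 transcripts were summed to 45038 genes through the GENCODE annotation of GRCm38 (unmatched transcripts held 0.73% to 1.08% of counts) and rounded. Testing was by quasi-likelihood in edgeR 4.0.16 (R 4.3.3, TMM) with a mean per age over all 16 libraries, Benjamini-Hochberg over 12177 genes and 0.05 as threshold. On simulated data with known changes the fit was tested. Those data had a common spread for all genes and no length or GC slopes, so they do not cover the swings between these libraries. Alternatives were DESeq2 1.42.0, limma 3.58.1 (voom, authors' CPM with pseudocounts 0.5 and 2), other filters, length and GC slopes, a replicate block, 13 libraries, and leaving out each library. Those on coding transcripts, the length slope in 13 libraries and the noncoding to coding ratio (limma on log2 CPM plus 0.5, at least 1 CPM) were added after seeing the data. Paralog ratios used exact permutation tests over 70 divisions. Genes were named by a rule on calls, extremes of change, level and length, paralog pairs and non-overlap, and Rps13 and Fau were named after their values were seen. Sequences are from RefSeq (GRCm38.p6) and GENCODE transcripts. A few genes are counted in the totals but not reported or drawn singly here.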

Additional observations from a re-analysis of the deposited data

Results flagged for a closer look

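Within an age of 4 libraries, 39 quantities of the family were looked at in 156 groups for a library standing far from the others, and chance alone flags about 1 in 20 groups. There were 19 such values, 16 of them in 12M replicate 4. In that library the summed level of all members was 4588 CPM, against 2739 to 2934 CPM in the other 12M libraries, and coding transcripts summed to 3492 CPM, against 2022 to 2122 CPM. Single genes were high there: Rplp2 60.9, Rpl24 27.5, Rplp1 79.1, Rpl6 168.7, Rpl11 44.8, Rpl22 87.9, Rpl7 93.2, Rplp0 88.1, Rpl19 95.8, Rpl21 81.3, Rps27a 71.4, Rpl29 61.6 and Rpl37 33.5 CPM. The log2 ratio of Rps27l to Rps27 was low there at -2.32, against -1.14 to -1.11. The same library had the highest Müller glia marker sum, 595.5 CPM, whose part in these values was not tested.

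Elsewhere the summed level was low in 3M replicate 3 (3601 CPM, against 3845 to 3854 CPM). Rpl22 was low in 18M replicate 3 (55.1 CPM, against 69.5 to 71.99 CPM), and the log2 ratio of Rpl22l1 to Rpl22 was high in 12M replicate 1 (-1.60, against -2.13 to -2.06).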

How the results depend on the processing

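No member was called in the main fit of the 16 libraries. The replicate block also called 0 in every comparison, with 444 genes called at 24M in all, against 518. Same-numbered libraries correlated from -0.744 to 0.726 in their deviations from the mean of their age. Whether they share more than a number was not tested. Counts that moved were the following. At 24M, lower members were 51 in the 13 libraries, 59 with voom, 16 with the GC slope and 1 (Rpl22l1) with the authors' CPM at either pseudocount, and 1 (Rpl12) was higher with the length slope in 16 and in 13 libraries. The authors' CPM had 198 and 199 of 12249 genes lower at pseudocounts 0.5 and 2. The length slope in 13 libraries had 279 of 12177 genes higher. At 18M, 1 was higher with the length slope, the GC slope, the length slope in 13 libraries, voom and DESeq2. Of all 12177 genes, 412, 657, 540, 652 and 330 were higher, in that order. Lower at 18M were 1 with the length slope, 2 with the GC slope, 3 in the 13 libraries, 4 with the length slope there, 2 with the ages compared alone and 3 with voom. In that order, 241, 454, 270, 304, 202 and 458 of all 12177 genes were lower. At 12M, 1 was higher in the 13 libraries and with voom, and 67 and 63 were lower there. With voom, 2878 of 12177 genes were higher at 12M and 2949 lower. Any difference among ages was called for 1 with the length slope, 4 with the GC slope, 60 in the 13 libraries, 2 with the length slope there, 66 with voom and 2 with DESeq2. The linear term called 2 with the length slope, 13 with the GC slope, 5 in the 13 libraries, 1 with the length slope there, 4 with voom and 1 with the authors' CPM. With the authors' CPM it called 512 and 519 of 12249 genes at pseudocounts 0.5 and 2. Leaving out single libraries gave 0 to 1 higher and 0 to 2 lower at 18M, 0 to 3 lower at 12M, 0 to 2 for any difference and 0 to 1 for the linear term. Without 12M replicate 4, 309 of 12177 genes were higher and 205 lower at 18M. There 260 were lower at 12M and 543 were called for any difference. Without 24M replicate 3, 286 genes were higher at 18M and 846 were called for the linear term. The causes were not tested. The members' median at 12M turned to 0.026 with the length slope, and the difference in Rps27l to Rps27 at 24M to -0.54 in coding transcripts (adjusted exact permutation p = 0.171). Values near 0 that changed sign, none called, were at 24M Rpl12 (-0.0068, voom), Rps27l (-0.0064, length slope), Rpl6 (-0.01 at 1 CPM, -0.0062 with no filter, -0.13 in the 13 libraries, -0.29 in coding transcripts, -0.0015 with the ages alone, -0.22 with voom), Rpl5 (0.08 and 0.23), Rpl7l1 (0.02 and 0.0095) and Rps27 (0.08 and 0.19), the last 3 with the length slope in 16 and 13 libraries. At 12M they were Rpl12 (0.03, length slope in 13 libraries) and Rpl31 (-0.0088 with no filter, -0.12 in the 13 libraries, -0.22 with the length slope there, -0.06 with voom, -0.03 with the authors' CPM). Without single libraries, signs also changed at 24M for Rps27l (-0.0061 to 0.15), Rpl6 (-0.13 to 0.12), Rpl5 and Rps27 (-0.19 to 0.02 each), at 18M for Rpl5 (-0.03 to 0.25) and at 12M for Rpl31 (-0.11 to 0.06).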
